A study of Mus musculus with 10 samples.

Results

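The respiratory chain of the inner mitochondrial membrane is built from the products of both genomes of the cell. The mitochondrial chromosome encodes a few hydrophobic subunits at the centre of complexes I, III, IV and V, and the nucleus encodes all the others, which are made in the cytosol and imported. Complex I (NADH dehydrogenase), complex III (cytochrome bc1) and complex IV (cytochrome c oxidase) pump protons, complex V (ATP synthase) uses the proton gradient to make ATP, and complex II is wholly nuclear. Purkinje and granule neurons of the cerebellum depend heavily on this oxidative supply.

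Members were taken by gene symbol in the GENCODE M21 annotation: the Nduf a, b, c, s and v series, Uqcr, Cox4 to Cox8, Atp5, and the mitochondrial mRNAs mt-Nd, mt-Co, mt-Cytb and mt-Atp. Of the 94 identifiers that match, 93 are among the 53447 genes listed in each library. Of these, 13 are mitochondrially encoded (7 in complex I, 1 in complex III, 3 in complex IV and 2 in complex V) and 80 are nuclear (36, 8, 19 and 17).

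Whole cerebella at postnatal day 21 were sequenced, from mice of the strain labelled BALB/c (per the study's methods, the del17 line was crossed with BALB/cCrSlc mice): 5 WT mice, labelled Control, and 5 Dscam del17/del17 mice, labelled DscamKO and called mutants here. The mutant allele of Dscam, which encodes a neuronal adhesion molecule, has a deletion that arose spontaneously and is described as causing loss of function, and it is present in every cell of the body, so that an effect in the cerebellum cannot be told apart from one of the whole animal. Littermates served as controls and both sexes were used, which the labels do not give per library. The deposited values are TPM, shares of each library's transcripts corrected for transcript length, so that fewer cells of a type and less RNA per cell cannot be told apart.

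Dscam was listed at 6.29 to 9.05 TPM in WT libraries and at 3.05 to 5.42 TPM in mutant libraries. It was listed lower in every mutant than in every WT library, beside 0.798% of all genes tested, and was still present in the mutants. Its log2 fold change was -0.82 ± 0.23 (SE, limma adjusted p = 0.779). A gene-level TPM does not show whether a transcript carries the deletion. Cerebellar markers were present in both genotypes (Pcp2 of Purkinje cells averaged 1774 TPM in WT and 1595 TPM in mutant libraries). Pcp2 was the only one of the 4 Purkinje cell markers to average lower in the mutants. The other 3, Calb1, Car8 and Ppp1r17, averaged higher there, and the median log2 fold change of the 4 was 0.29. Across the markers, Hbb-bs of red blood cells and Mobp of oligodendrocytes were higher in every mutant than in every WT library, beside 0.419% of all genes tested. Neurod1 of granule cells was lower in every mutant library, beside 0.798%. All 3 blood and all 3 oligodendrocyte markers had a log2 fold change above 0. Of the 4 granule cell markers 1 lay above 0 and 3 below. The part of these differences in the results below was not tested. The 2 libraries WT 3 and WT 5 had the lowest summed levels of mitochondrial mRNA, and the larger differences that they move are given with and without them. Because they were picked for that low level, leaving them out must lower the mutant to WT differences of mitochondrial mRNAs and ratios. Values without them thus show how far 2 libraries carry a difference, and are no test of it. The TPM listed summed to 684771 in WT 5, the lowest, and to at most 838532 in WT 1, and WT 5 also had the fewest genes at 0.5 TPM or more (15623, against 17101 to 17763 in the others).

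Copies in the nuclear genome bear on the levels of part of the mitochondrial genes below, and on the sums and ratios that hold them. Transcripts of 8 of the 13 mitochondrial genes matched annotated nuclear pseudogenes over at least 150 bases at an identity of at least 95%. A block on the minus strand of chromosome 1 holds 7 of these copies at mean levels of 487 to 3054 TPM. To show why reads are hard to assign, the first 60 bases of mt-Nd3 (complex I) and mt-Atp6 (complex V) are set beside their chromosome 1 copies, in the GRCm38 build. Capitals mark the single base at which mt-Nd3 and Gm28438 differ over 345 aligned bases (T3C, counted from the first base of the mRNA).
mt-Nd3, chrM:9459-9518, plus strand: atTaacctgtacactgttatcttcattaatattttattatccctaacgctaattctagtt
Gm28438, chr1:24613060-24613119, minus strand: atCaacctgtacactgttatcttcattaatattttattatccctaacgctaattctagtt
mt-Atp6, chrM:7927-7986, plus strand: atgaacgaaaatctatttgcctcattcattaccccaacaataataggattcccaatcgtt
Gm10925, chr1:24614592-24614651, minus strand: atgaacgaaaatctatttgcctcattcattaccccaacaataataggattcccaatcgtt

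The windows of mt-Atp6 and Gm10925 are identical, as are all 678 bases of that copy. Gm10925 was listed at a mean of 2513 TPM over the 10 libraries, against 2344 TPM for mt-Atp6. Gm28438 was listed at 595 TPM, against 574 TPM for mt-Nd3. Gm28661, a copy of mt-Co2 (cytochrome c oxidase subunit 2), took 49.8% of the pair's TPM on average. Gm28437 took 50.1% of its pair with mt-Co3, and Gm10222 took 49.6% of its pair with mt-Nd4l. Shorter copies took less: Gm29216, which matches 483 bases of mt-Co1, took 17.8% to 30.4% of its pair over the libraries, and Gm28439 took 15.5% to 23.9% of its pair with mt-Nd4. The near-equal split of pairs with whole-length copies means that the listed levels of mt-Co2, mt-Co3, mt-Atp6, mt-Nd3 and mt-Nd4l are uncertain, since their reads could have been divided with the copy. The 10 copies on chromosomes 1 and 2 together made up 25.8% to 28.9% of the TPM of both in the 10 libraries. That share varied little between libraries.

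**Figure D1:**
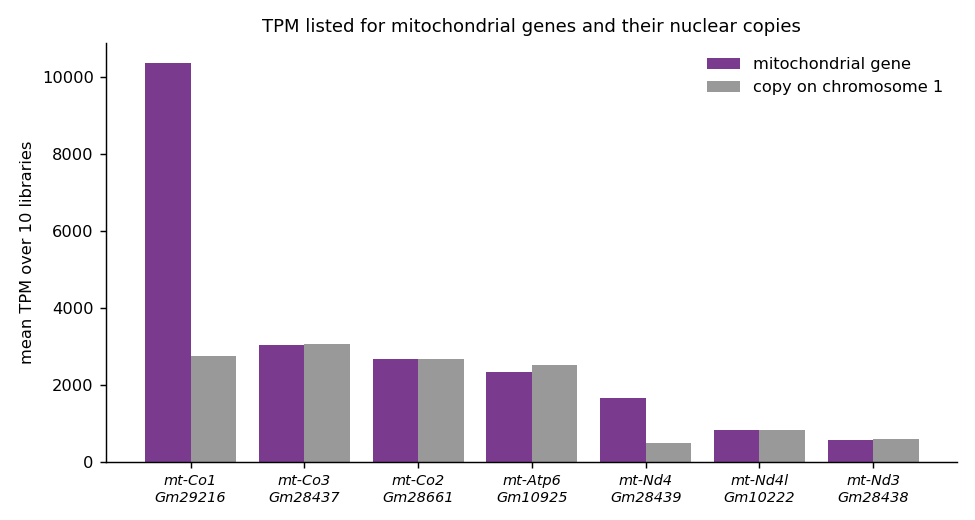
Mean TPM over the 10 libraries (vertical axis) for 7 mitochondrial genes and their chromosome 1 copies. The bars of mt-Co3, mt-Co2, mt-Atp6, mt-Nd4l and mt-Nd3 are nearly the same height as those of their copies.

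Among nuclear members, 15 had a copy elsewhere by the same criteria. The largest share was that of Gm10039, which took 63.7% of its pair with Atp5g1, a gene for the proton-carrying c subunit of ATP synthase. Gm15920 took 44.1% of its pair with Ndufa12, and Gm10221 took 36.6% of its pair with Atp5l. Ndufb8, Ndufb9 and Ndufb2, all accessory subunits of complex I, share exon sequence on the same strand with the gene models Gm20538, Gm49356 and Gm42420, listed at means of 378, 230 and 81.3 TPM. Levels of these members are therefore uncertain too.

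The mitochondrially encoded subunits included the most abundant member of each of the 4 complexes. mt-Co1, the catalytic subunit of cytochrome c oxidase, led with a mean of 10384 TPM, followed by mt-Cytb, the cytochrome b of complex III, with 5140.4 TPM. mt-Nd1 was the highest of complex I with 3897 TPM, mt-Atp6 the highest of complex V with 2344 TPM, and mt-Nd6 the lowest of the 13 with 96.9 TPM. mt-Nd6 is the only one of the 13 that is annotated on the minus strand.

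In WT libraries 1 to 5, mt-Co1 stood at 13875, 12174, 5594, 8465 and 3527 TPM. In mutant libraries 1 to 5 it stood at 13266, 11057, 11912, 13768 and 10202 TPM. WT 1 was the highest of all libraries, WT 2 lay among the mutants, and WT 3, WT 4 and WT 5 lay below all of them. The log2 fold change was 0.62 ± 0.32 (SE, n = 5 per genotype, limma adjusted p = 0.779), and 0.09 without WT 3 and WT 5.

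mt-Cytb was listed at 6161, 5185, 3879, 5036 and 2591 TPM in the WT and at 5648, 5723, 5507, 6256 and 5419 TPM in the mutants. The mutants were close together and WT 1 lay within them. The log2 fold change was 0.38 ± 0.20 (SE, limma adjusted p = 0.779), and 0.07 without WT 3 and WT 5.

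mt-Nd3, a small membrane subunit of complex I, varied more: 842, 728, 189, 395 and 103 TPM in the WT and 706, 589, 695, 911 and 587 TPM in the mutants. Its log2 fold change was 1.01 ± 0.49 (SE, limma adjusted p = 0.779), and the groups overlapped through WT 1 and WT 2. It was 0.14 without WT 3 and WT 5. mt-Nd6 was listed at 94.8, 185, 24.5, 52.1 and 12.7 TPM in the WT and at 116, 113, 133, 142 and 96.5 TPM in the mutants, a range of 14.5-fold over the 10 libraries. WT 2 had the highest value of all and WT 5 the lowest. The log2 fold change was 1.27 ± 0.58 (SE), with an unadjusted limma p of 0.0481, an adjusted p of 0.779 and a two-sided exact permutation p of 0.119. Without WT 3 and WT 5 it was 0.29.

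mt-Nd5 was listed at 485 to 1228 TPM in the WT and at 1024 to 1385 TPM in the mutants (log2 fold change 0.48 ± 0.23 SE). mt-Nd1, mt-Nd2, mt-Nd4 and mt-Nd4l had log2 fold changes of 0.39, 0.31, 0.41 and 0.29. Those of mt-Co2 and mt-Co3 were 0.34 and 0.29, and those of the ATP synthase subunits mt-Atp6 and mt-Atp8 were 0.45 and 0.57. No member passed an adjusted p of 0.05, where 0.0% of the 17168 genes tested did. All 13 mitochondrial mRNAs had a log2 fold change above 0, with a median of 0.41, beside a median of 0.05 over all genes tested. Without WT 5 the median was 0.21, and without both WT 3 and WT 5 it was 0.04, with 12 of 13 above 0. The 13 share their libraries and are cut from long common precursors, so their common direction is not 13 independent observations.

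**Figure D2:**
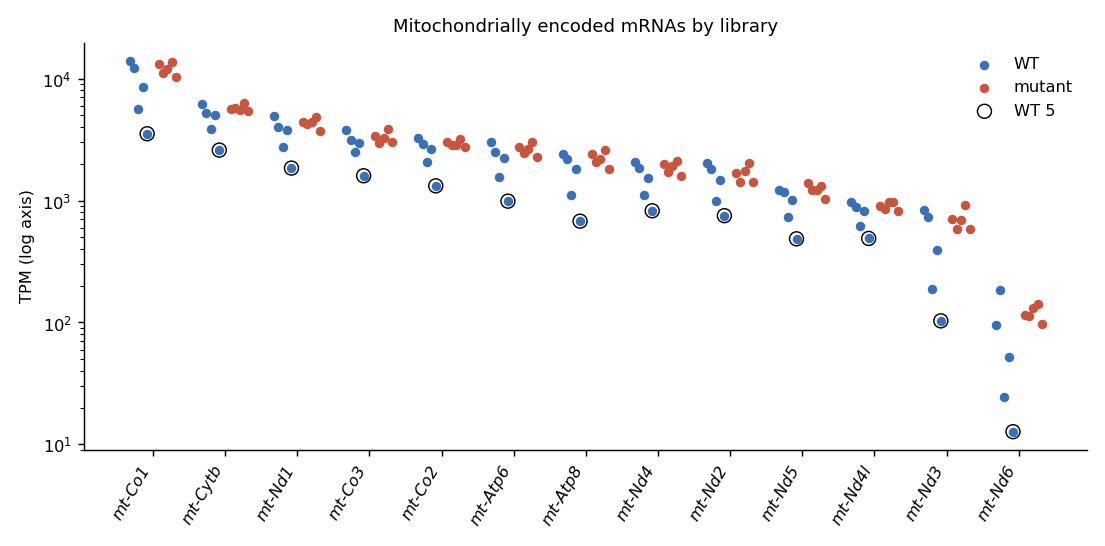
TPM (log axis) of the 13 mitochondrially encoded mRNAs, ordered by mean level, with a point per library, WT in blue and mutant in red. WT 5 (circled) is the lowest library for each of the 13, and mt-Nd3 and mt-Nd6 have the widest WT spread.

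The mitochondrial rRNAs, which form the ribosome that translates these mRNAs, also averaged higher in the mutants, and were lowest in WT 5. mt-Rnr1 averaged 6142 TPM ± 3249 (SD, n = 5) in the WT and 9888 TPM ± 1743 in the mutants (log2 fold change 0.87 ± 0.37 SE, limma adjusted p = 0.779). mt-Rnr2 averaged 5698 TPM ± 2752 and 8761 TPM ± 1605 (log2 fold change 0.76 ± 0.33 SE, limma adjusted p = 0.779). These differences were 0.29 and 0.26 without WT 3 and WT 5. The sum of both rRNAs per unit of mitochondrial mRNA was 0.340, 0.509, 0.370, 0.361 and 0.271 in the WT and 0.5097, 0.489, 0.504, 0.463 and 0.378 in the mutants. The step that removed or passed over rRNA before sequencing is not given in the sources used here.

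Summed over the 13 mRNAs, the mitochondrial genome gave 44670 TPM in WT 1, 38733 in WT 2, 23124 in WT 3, 32199 in WT 4 and 15206 in WT 5. The mutants gave 41676, 37256, 39488, 44973 and 34717 TPM. Summed over the 80 nuclear members, the WT gave 31263, 26355, 29817, 29268 and 26180 TPM. The mutants gave 26454, 26926, 26670.4, 27532 and 28809 TPM. The mitochondrial sum spanned 2.96-fold between the lowest and the highest library, whereas the nuclear sum spanned 1.19-fold. The mitochondrial to nuclear ratio was 1.43, 1.47, 0.776, 1.10 and 0.581 in the WT and 1.58, 1.38, 1.48, 1.63 and 1.21 in the mutants. Thus 3 mutants lay above all WT libraries, 2 lay within their range, and WT 3 and WT 5 were the only libraries with more nuclear than mitochondrial TPM.

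The ratio differed between complexes, and complex V had the lowest average in both genotypes. Complex IV averaged 1.42 ± 0.63 (SD, n = 5) in the WT and 1.98 ± 0.24 in the mutants. Complex III averaged 1.44 ± 0.42 and 1.90 ± 0.12. Complex I averaged 0.990 ± 0.340 and 1.28 ± 0.15. Complex V averaged 0.524 ± 0.177 and 0.741 ± 0.115, and was the only complex with a ratio below 1 in all 10 libraries. With members assigned by symbol, complex V was the lowest and complex I the next lowest in every library. Complexes III and IV changed places between libraries. Ndufa4, a subunit of complex IV in spite of its symbol, counts in complex I in all these ratios. They were not computed with it moved, which would raise the ratio of complex I and lower that of complex IV, so their order is uncertain. These sums run over unequal numbers of genes, from 1 mitochondrial gene in complex III to 7 in complex I.

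On the log2 scale the mutant ratio exceeded the WT ratio by 0.52 over all members, by 0.44 in complex I, 0.45 in complex III, 0.60 in complex IV and 0.56 in complex V. Each difference lay within or near the SD of the WT libraries, which was 0.58, 0.54, 0.46, 0.71 and 0.54 in the same order. That SD describes the spread of single libraries and is not the uncertainty of a difference of means. Without WT 5 the overall difference was 0.32, and without WT 3 and WT 5 it was 0.13. With the nuclear copies added to the mitochondrial sums it was 0.50.

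**Figure D3:**
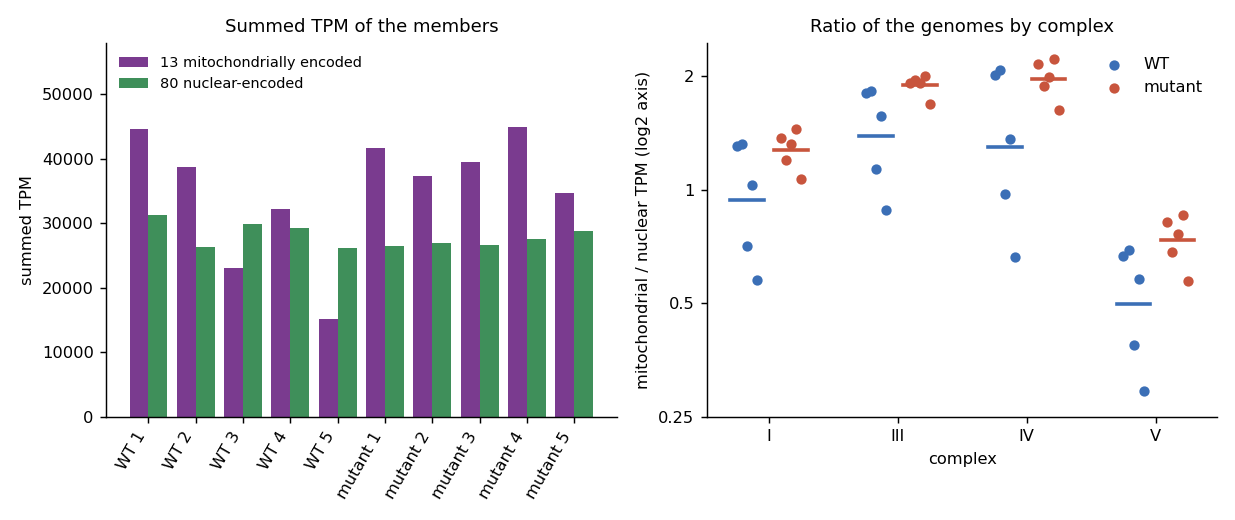
Left, summed TPM of the 13 mitochondrial and the 80 nuclear members in each library. Right, the mitochondrial to nuclear ratio of summed TPM (log2 axis) by complex, with a point per library and a line at the geometric mean. The mitochondrial bars range from 15206 TPM (WT 5) to 44973 TPM (mutant 4), the nuclear bars only from 26180 to 31263 TPM, and complex V has the lowest ratios.

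The nuclear members as a whole differed little between the genotypes. Of the 80, 77 passed the filter on low values, and in 34 of these the log2 fold change was positive and in 43 negative (median -0.03). Over all genes tested, 44.0% had a log2 fold change below 0. By complex, 21 of 36 nuclear members lay below 0 in complex I, 4 of 8 in complex III, 9 of 16 in complex IV and 9 of 17 in complex V. Unadjusted limma p-values under 0.05 were reached by 4 nuclear members, all lower in the mutants, and by mt-Nd6, that is 5 of 90 members, beside 5.55% of all genes tested. No member had an adjusted p below 0.779.

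Nuclear complex I is led by Ndufa4, which is now known to be a subunit of complex IV in spite of its symbol. It was listed at 1308, 1067, 901, 1052 and 661 TPM in the WT and at 1180.5, 1144, 1124, 1214 and 1119.7 TPM in the mutants. The mutants lay within the WT range (log2 fold change 0.25 ± 0.15 SE, and 0.02 without WT 3 and WT 5). The accessory subunits Ndufb9 and Ndufb8 followed with means of 440.4 and 416 TPM and log2 fold changes of -0.07 and -0.12. The 7 conserved nuclear core subunits, which carry the flavin and iron-sulphur clusters, had 3 log2 fold changes above 0 and 4 below, from -0.17 to 0.25.

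Ndufb10 (chr17:24722060-24724478, minus strand), an accessory subunit of the membrane arm of complex I, was the only member whose genotypes did not overlap. It stood at 340.4, 325, 349, 325 and 374 TPM in the WT and at 304, 294, 287, 279 and 299 TPM in the mutants. Every mutant lay below every WT library, beside 0.798% of all genes tested, and no member lay above in every mutant, beside 0.419% of all genes tested. The log2 fold change was -0.23 ± 0.07 (SE, limma adjusted p = 0.779), and -0.17 without WT 3 and WT 5. The two-sided exact permutation p was 0.00794, the smallest that 5 against 5 libraries allow. Groups without overlap always give that p, so it restates the missing overlap for which Ndufb10 was named and is no further test.

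Ndufa6, another accessory subunit of complex I, was listed at 377, 339, 412, 439 and 442 TPM in the WT and at 309, 315, 368, 356 and 359 TPM in the mutants. The groups overlapped through WT 2 (log2 fold change -0.23 ± 0.10 SE, limma adjusted p = 0.779). Ndufa12 was listed at 216, 190.2, 187, 175 and 102 TPM in the WT and at 185, 282, 254, 184 and 242 TPM in the mutants (log2 fold change 0.42 ± 0.20 SE, limma adjusted p = 0.779). Its near-identical copy Gm15920 makes that value uncertain, and the summed pair differed by 0.31 on the log2 scale. Without WT 3 and WT 5 the log2 fold change of Ndufa12 was 0.23.

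In complex III the highest nuclear member was Uqcr11, a small subunit of the bc1 complex (chr10:80402997-80406830). It stood at 821, 698, 935, 836 and 856 TPM in the WT and at 609, 641, 661, 687 and 803 TPM in the mutants. All mutants but mutant 5 lay below every WT library (log2 fold change -0.29 ± 0.10 SE, limma adjusted p = 0.779, two-sided exact permutation p = 0.0159). Its copy Gm16418 took 17.6% of the pair's TPM on average, which makes the level of Uqcr11 uncertain. The summed pair differed by -0.26 on the log2 scale. Uqcr10 and Uqcrh averaged 541 TPM each over all libraries, with log2 fold changes of 0.00 and 0.02. Uqcrc2, a core protein of the complex, was listed at 204, 161, 131, 148 and 84.8 TPM in the WT and at 192, 173, 183, 171 and 159 TPM in the mutants. Its order over the WT libraries matched that of mt-Cytb, with WT 5 and then WT 3 lowest. Its log2 fold change was 0.32 ± 0.19 (SE), and 0.05 without those libraries. Uqcrq, a small subunit, had a log2 fold change of -0.15.

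In complex IV the 3 highest nuclear members were Cox8a, Cox6a1 and Cox4i1, with means of 2252, 1652 and 1435 TPM. Cox8a stood at 2337, 1997, 2513, 2479.8 and 2651 TPM in the WT and at 2089, 2125, 2025, 2039.6 and 2259 TPM in the mutants, with WT 2 below every mutant and the other 4 WT libraries above every mutant (log2 fold change -0.18 ± 0.09 SE, limma adjusted p = 0.779, and -0.10 without WT 3 and WT 5). WT 5, the lowest library for mt-Co1, was the highest for Cox8a. Cox6a1 and Cox4i1 had log2 fold changes of -0.19 and -0.13.

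Several nuclear subunits of complex IV exist as tissue isoforms, and the liver or ubiquitous form dominated throughout. Cox4i2, the isoform known from lung and other oxygen-sensing cells, made up 0.680% ± 0.192 (SD, n = 5) of the Cox4i pair in the WT and 0.859% ± 0.264 in the mutants. Cox6b2, known from testis, made up 4.19% ± 1.15 and 4.47% ± 0.82 of the Cox6b pair. Cox8b, a heart and muscle form, made up 0.276% ± 0.143 and 0.224% ± 0.122 of the pair with Cox8a. Cox6a2, the heart and muscle form of Cox6a1, was listed at 0 in 8 libraries, and at 0.760 TPM in WT 2 and 0.954 TPM in mutant 4. Cox7b2 and Cox8c were listed at 0 in all 10 libraries, and Cox7b, the partner of Cox7b2, averaged 323 TPM.

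Cox7a1, the heart and muscle form of Cox7a, had the lowest log2 fold change of the members with a p under 0.05. It was listed at 8.04, 14.1, 17.8, 20.8 and 15.0 TPM in the WT and at 6.71, 11.5, 3.94, 7.43 and 10.2 TPM in the mutants. WT 1 lay within the mutants and the other 4 WT libraries lay above them (log2 fold change -0.94 ± 0.32 SE, limma adjusted p = 0.779, two-sided exact permutation p = 0.0317). Its share of Cox7a1 and Cox7a2 together was 4.44% ± 1.84 in the WT and 2.04% ± 0.75 in the mutants. Cox7a2, the ubiquitous form, averaged 350.2 and 380.3 TPM. Of the 4 skeletal muscle markers, Ckm and Myh4 were listed at 0 in all libraries, and the sum of the 4 ranged from 2.58 to 7.05 TPM in the WT and from 2.38 to 4.91 TPM in the mutants.

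In complex V the catalytic beta subunit Atp5b led with 2001, 1602, 1496, 1546 and 1124 TPM in the WT and 1383, 1426, 1445, 1514 and 1414 TPM in the mutants. The mutants lay within the WT range (log2 fold change -0.09 ± 0.13 SE, and -0.25 without WT 3 and WT 5). Atp5a1, its alpha partner in the F1 head, and Atp5h, a peripheral stalk subunit, averaged 702 and 593 TPM with log2 fold changes of 0.02 and 0.03. Atp5d, the delta subunit of the central stalk, was listed at 495, 418, 592, 571 and 747 TPM in the WT and at 430.1, 452, 476, 299 and 516 TPM in the mutants. WT 5 was the highest and mutant 4 the lowest (log2 fold change -0.37 ± 0.17 SE, limma adjusted p = 0.779, and -0.20 without WT 3 and WT 5).

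The c ring of ATP synthase is encoded by 3 genes with the same mature protein. Atp5g3 gave 48.6% ± 8.06 (SD, n = 5) of their summed TPM in the WT and 53.4% ± 3.58 in the mutants. Atp5g1 gave 23.3% to 37.1% in the WT and 20.3% to 28.2% in the mutants, and Atp5g2 gave 19.7% to 28.1% and 19.8% to 27.0%. In WT 5 the order of Atp5g3 and Atp5g1 was turned, with 34.8% and 37.1%. These shares leave out Gm10039, the copy of Atp5g1.

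**Figure D4:**
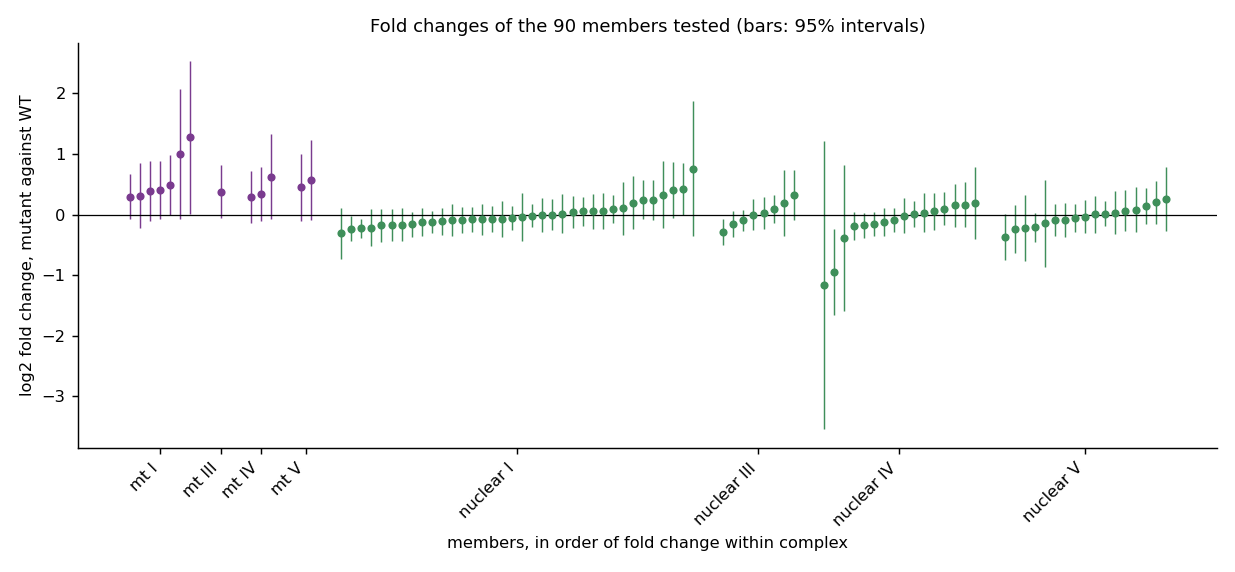
Log2 fold change of each of the 90 members tested (mutant against WT, bars are 95% intervals), by genome and complex and in rising order within each. The 13 mitochondrial points lie between 0.29 and 1.27, and the nuclear points spread around a median of -0.03.

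Other genes of the pathway, taken from lists outside the symbol pattern, gave no adjusted p under 0.05 either. Of the 4 subunits of complex II, 1 lay above 0 and 3 below, with a median log2 fold change of -0.01, and Sdhb, its iron-sulphur subunit, averaged 193 TPM in the WT and 188 TPM in the mutants. Ndufab1, the acyl carrier subunit of complex I, averaged 126 TPM ± 28.9 (SD) in the WT and 92.2 TPM ± 8.38 in the mutants (log2 fold change -0.42 ± 0.14 SE, limma adjusted p = 0.779). Ndufab1 belongs to a list of 6 chain subunits and carriers tested outside the symbol pattern, of which 3 lay above 0 and 3 below, with a median log2 fold change of 0.14. In the same list Cyc1, the cytochrome c1 of complex III, had a log2 fold change of -0.19, and the most abundant, Usmg5, a small ATP synthase subunit, one of 0.46. Without WT 3 and WT 5 that of Usmg5 was -0.07 and that of Ndufab1 -0.25.

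Among 14 complex I assembly factors 10 lay above 0 and 4 below, and 1 had an unadjusted p under 0.05. That was Ndufaf2, which averaged 14.8 TPM ± 9.83 in the WT and 4.25 TPM ± 1.29 in the mutants (log2 fold change -1.48 ± 0.52 SE, limma adjusted p = 0.779). Of 19 complex IV assembly factors 8 lay above 0, with Cox16 at 0.87 ± 0.36 and Cox14 at -0.28 ± 0.11 on the log2 fold change scale, and at 0.36 and -0.13 without WT 3 and WT 5. All 3 complex V and 3 of 6 complex III assembly factors lay above 0. Of 23 genes that copy or express the mitochondrial genome, 14 lay above 0 with a median log2 fold change of 0.06. Those with the smallest p were Fastk at -0.33 ± 0.14 and Ssbp1, the single-strand DNA binding protein, at -0.42 ± 0.18. Of 9 nuclear regulators of chain genes 6 lay above 0, among them Ppargc1a, a coactivator of mitochondrial biogenesis, which averaged 7.86 TPM in the WT and 11.1 TPM in the mutants (log2 fold change 0.56 ± 0.25 SE, limma adjusted p = 0.779, and 0.28 without WT 3 and WT 5). Of 16 mitochondrial membrane, import and matrix proteins 11 lay above 0, with a median of 0.04, and Slc25a4, the ADP/ATP carrier, averaged 577 and 594 TPM.

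The base composition of the transcripts moved with the differences between libraries. The 13 mitochondrial mRNAs have 31.9% to 41.1% GC, with a median of 37.1%, and the nuclear members tested have 38.4% to 63.3%, with a median of 51.5%. For each library, the deviation of a gene from the mean of the other 4 libraries of its genotype was set against GC. Over the 77 nuclear members Pearson's r was -0.49 in WT 1, -0.40 in WT 2, 0.41 in WT 3, 0.11 in WT 4 and 0.34 in WT 5. In the mutants it lay between -0.24 and 0.16. These are descriptions across genes that share a library and are not independent. In WT 5 the 20 nuclear members lowest in GC had a median deviation of -0.46 on the log2 scale, the 20 highest in GC one of 0.14, and the 13 mitochondrial mRNAs one of -1.04. In WT 1 the same medians were 0.39, -0.05 and 0.75.

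The same gradient held outside the members. Here each gene's log2 TPM minus its mean over the 10 libraries was set against GC. The slopes are thus relative, and high ones in some libraries force low ones in others. Over the 13525 nuclear protein-coding genes the slope was highest in WT 5, with 0.68 per 10 points of GC. It was 0.30 in WT 3, 0.14 in WT 4 and 0.03 in mutant 5, and below 0 in the other 6 libraries. The 4 libraries with a slope above 0 were also those with the lowest mitochondrial to nuclear ratio, in the same order. The mutant to WT log2 fold change was lower at higher GC, with a Pearson's r of -0.44 over the 77 nuclear members and -0.41 over the 13525 genes. Of the 39 nuclear members at or below the median GC 23 had a log2 fold change above 0, and of the 38 above it 11 did. Of the 20 nuclear members lowest in GC, 13 had their lowest WT value in WT 5 and 2 their highest, and of the 20 highest in GC 2 had their lowest WT value there and 5 their highest. With each library's GC trend removed, the median log2 fold change of the 13 mitochondrial mRNAs was 0.01, with 7 of 13 above 0, and that of Ndufb10 was -0.17. That correction carries a line fitted on nuclear genes down to a GC content few of them have, and the part of GC in these differences was not tested further.

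**Figure D5:**
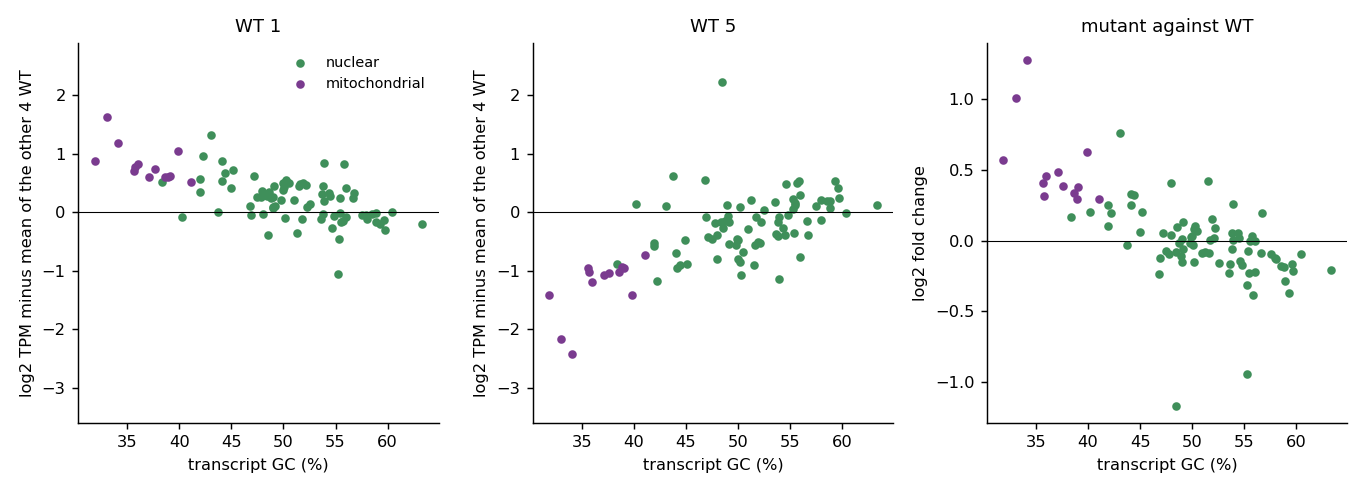
Left and middle, log2 TPM of each member tested in WT 1 and in WT 5 minus its mean in the other 4 WT libraries, against the GC content of its transcript. Right, the log2 fold change between the genotypes against GC. Mitochondrial mRNAs (purple, 31.9% to 41.1% GC) lie above 0 in WT 1 and below 0 in WT 5, and the nuclear members (green) slope down in WT 1 and up in WT 5.

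Some promoters of the nuclear members held known motifs, a feature that the symbols did not use. RefSeq start-site windows of the GRCm38.p6 build, from 250 bases before to 50 after the start, were found by symbol for 63 of the 80 nuclear members. The core of the NRF1 motif, GCGCANGCG, searched on both strands, was in 18 of these (28.6%), beside 7.03% of 27025 genes with a promoter. The ETS-type motif bound by GABPA, ACTTCCGG, was in 5 (7.94%, beside 4.31%), and the YY1 motif AAGATGGC was in 9 (14.3%, beside 3.19%). NRF1, GABPA and YY1 are known regulators of respiratory chain genes. Any of these motifs was in 29 of the 63 members (46.0%), beside 13.2% of the 27025 genes. Those genes were not matched to the members by promoter GC content or by level. A match is a description of these letters and not a bound site. For each motif, 60 bases around the match are shown from the promoter of 1 member that holds it, with the motif in capitals.
Cox6a1, NRF1, chr5:115349087-115349146, minus strand: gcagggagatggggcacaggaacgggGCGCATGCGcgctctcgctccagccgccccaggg
Cox8a, GABPA, chr19:7217592-7217651, minus strand: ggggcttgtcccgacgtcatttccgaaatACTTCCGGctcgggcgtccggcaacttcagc
Atp5j, YY1, chr16:84835031-84835090, minus strand: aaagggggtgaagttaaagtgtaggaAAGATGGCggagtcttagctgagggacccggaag

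The 18 members with the NRF1 letters had log2 fold changes from -0.29 in Uqcr11 to 0.10 in Ndufa5. Among them were Ndufb10 and Ndufa6, at -0.23 each, Atp5h at 0.03 and Atp5g3 at 0.07. Whether the motif goes with the fold change was not tested.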

How the data were processed

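Total RNA from 10 whole cerebella, 1 library per mouse, was sequenced from directional libraries. The authors trimmed reads with Trimmomatic, aligned them to GRCm38 with HISAT2 and estimated TPM per Ensembl gene with StringTie, and the deposited TPM were the starting point here. Read depth is unknown from TPM, so that no counting interval is given. How reads that match several places were divided, and the strand setting of StringTie, are not given in the sources used here. The study's own count analysis was not used here.

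Symbols and transcripts came from GENCODE M21. Genes with at least 0.5 TPM in at least 5 libraries were kept (17168), and log2(TPM + 0.1) was compared between genotypes with limma 3.58.1 in R 4.3.3 (moderated test, variance trend, Benjamini-Hochberg adjustment over all genes tested, threshold 0.05). Fold changes on this scale understate those of low genes. Single members were also compared by a two-sided exact permutation test, whose p is not adjusted for the number of genes. Sums and ratios were compared by their values alone, with no test. Copies were found with blastn 2.17.0 and kept at a mean of at least 1 TPM. The fit was tested on simulated data. Named members were the 13 mitochondrial mRNAs, the 3 highest and the 3 of smallest p among the nuclear members of each complex, the isoform families and members whose genotypes did not overlap. Of each further list, the 2 genes of smallest p and the most abundant one could be named. The members and lists were chosen with earlier results of these data known. Alternatives covered the pseudocount, filter, scaling, library weights, covariates, members and left-out libraries.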

Additional observations from a re-analysis of the deposited data

Results flagged for a closer look

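Each genotype's 5 libraries were screened for a single extreme library with Dixon's ratio (gap to the nearest library over the whole range, critical value 0.71), for 45 named members and 7 sums and ratios. This gave 104 groups of 5 libraries, of which those of Cox7b2 and Cox8c, at 0 in all libraries, could not be flagged. Chance flags about 1 in 20 groups, so 3 flagged groups are fewer than that share. That rate does not hold for the flags of Cox6a2, where a single value above 0 always gives a ratio of 1.

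Cox6a2, the heart and muscle isoform of Cox6a, was listed at 0.760 TPM in WT 2 and at 0 in the other 4 WT libraries. In the mutants it was listed at 0.954 TPM in mutant 4 and at 0 in the others. The mitochondrial to nuclear ratio of complex III was 1.69 in mutant 5, against 1.92 in the next lowest and 2.01 in the highest mutant, with a Dixon ratio of 0.731. The cause of these values was not tested.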

How the results depend on the processing

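No member had an adjusted limma p under 0.05 in any fit: over 1008 refits of the 42 named members tested, the smallest was 0.490. Over all genes the number called ranged from 0 to 1 when a library was left out (1 gene without mutant 4, the non-coding 1500004A13Rik, which is no member), and was 0 under the other alternatives. The medians did depend on libraries. That of the mitochondrial mRNAs ranged from 0.21 (without WT 5) to 0.55 (without WT 1), was 0.04 without WT 3 and WT 5, 0.25 with array weights and 0.34 after quantile normalization. That of the nuclear members ranged from -0.09 to -0.01 when a library was left out, with 18 of 77 above 0 without WT 3 and WT 5, and was 0.01 after quantile normalization. The ratio difference of 0.52 ranged from 0.32 to 0.66 (complex I 0.26 to 0.56, III 0.29 to 0.55, IV 0.36 to 0.77, V 0.37 to 0.68), and was 0.56 from mean log2 TPM. Without WT 3 and WT 5 it was 0.07 in complex I, 0.13 in III, 0.14 in IV and 0.19 in V. The GC correction and the addition of nuclear copies were chosen after seeing the data. Of the 42 named members, 25 had the same sign under every alternative run, 7 of the 13 mitochondrial ones among them. Other signs were found for 6 without WT 5 and for 12 with the GC trend removed. The cause was not tested.

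Replicate numbers did not pair the libraries, with correlations of same-numbered deviations from 0.00789 to 0.0978. With them as a replicate block, 0 genes were called, the medians were 0.41 and -0.03 and the ratio difference was 0.52. With TPM alone, depth sets no stated limit on low members such as Cox6a2 and Cox8b.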

Other observations

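Single libraries stood apart for a few nuclear members, which were chosen after their values were seen. Ndufs4, an accessory subunit of complex I, was listed at 8.66 TPM in WT 4 and at 46.7 to 92.2 TPM in the other 9 libraries. Atp5e, the epsilon subunit of the ATP synthase central stalk, was listed at 461 TPM in mutant 5 and at 116 to 141 TPM in the other mutants, with 161 to 247 TPM in the WT.

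Atp5j, a peripheral stalk subunit whose promoter holds the YY1 letters shown above, fell into 2 ranges that did not follow genotype. It was listed at 259 to 318 TPM in WT 1, WT 2, WT 3, mutant 1 and mutant 2, and at 140 to 179 TPM in WT 4, WT 5, mutant 3, mutant 4 and mutant 5. Cox6c2, a processed pseudogene of the complex IV subunit gene Cox6c that the symbol pattern takes in, was listed at 21.1 TPM in WT 5 and at 0 to 9.47 TPM in the others. No cause of these values was tested.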
